A study of Mus musculus with 18 samples.

Results

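The genes described here encode proteins of the centrosome and of the centriolar satellites, the granules in which Pcm1 resides. They were chosen by name: every protein-coding gene called Cep followed by a number, plus Bbs4, Ofd1, Pcnt, Ninl, Nin, Ssx2ip, Mib1, Disc1, Ndel1, Nde1, Pafah1b1, Cdk5rap2, Ahi1, Sdccag8 and Hap1, with Pcm1 itself left out. A gene also needed at least 10 reads in at least 1 of the 18 libraries. This gave 50 genes of the 17545 that passed the same minimum and of the 38561 counted in all. Of the 51 genes with a fitting name, Cep295nl alone stayed outside, with a highest count of 9. The members closest to the minimum were Cep55, with a highest count of 15, Disc1 with 48 and Cep72 with 90.

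RNA was taken from the frontal cortex, striatum and hippocampus of 6 adult littermate mice on a C57 Bl6J background, 3 WT and 3 Pcm1-/-, so that each of the 6 groups had 3 libraries. The Pcm1-/- allele is a gene-trap insertion made in embryonic stem cells of the E14Tg2a.4 line, which comes from another mouse strain, and the mice were backcrossed to C57BL/6J for at least 3 generations. The labels give no treatment and no exact age. Each library comes from 1 region of 1 animal, and all regions were taken from the same animals, so the comparisons of genotype in different regions are not independent of each other. The p-values of genotype comparisons within a region or over summed counts measure the spread between these few animals. The fits that compare regions, and the interaction, had no term for the animal unless a block is named. In them the regions of 1 animal count as separate libraries. Brain tissue was sequenced whole, so fewer cells of a type and less RNA per cell cannot be told apart in any value below.

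The centrosome is built from a pair of centrioles inside a protein matrix, the pericentriolar material, which nucleates and anchors microtubules. The older centriole carries appendages and can dock at the membrane as the base of a primary cilium, an antenna that most neurons and astrocytes keep. Around the centrosome, satellites scaffolded by Pcm1 carry, store or turn over centrosome and cilium proteins along microtubules, with the help of the dynein motor and its regulators.

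Counts on genes ranged from 24950537 to 33405081 per library. Pcm1 was counted 3425 to 4919 times in the WT libraries and 313 to 520 times in the libraries labelled Pcm1-/-, and its log2 fold change was -3.46 for frontal cortex, -3.29 for striatum and -3.51 for hippocampus (edgeR, adjusted p of 4.6e-07, 1.5e-06 and 2.3e-06). Markers of striatal projection neurons matched the striatal label: summed CPM (read counts scaled to a common library size) of 5 genes was 6040 to 7840 in striatum and at most 267 elsewhere. The 4 cortical excitatory markers summed to 2300 to 2820 CPM in frontal cortex and 1400 to 2350 in hippocampus. In striatum they summed to 13.4 to 80.6 CPM, the highest in WT striatum replicate 1. Marker sums of glial and ventricular cells differed among regions and among libraries. The 5 oligodendrocyte markers summed to 1500 to 2180 CPM in frontal cortex, 4820 to 7960 in striatum and 3160 to 7950 in hippocampus. The 5 choroid plexus markers summed to 5960 CPM in WT striatum replicate 3 and to 30.3 to 164 in the other striatal libraries, and to 220 to 6250 in the hippocampal libraries. None of these markers was at 0. Reads on the Y chromosome numbered 3064 to 4393 in the libraries of 1 animal of each genotype and 67 to 112 in those of the other 4. All 3 WT striatal libraries were sequenced on lane 5 and the Pcm1-/- ones on lanes 3 and 4. For striatum, genotype and lane therefore cannot be told apart.

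All but 1 of the 50 genes averaged at least 1 CPM over the 18 libraries, and Pafah1b1 and Cep55 marked the ends of the range with 673.8 and 0.266 CPM. Per kilobase of exon, the median member stood at 2.54 CPM and the median of all 17545 genes at 3.34. Pafah1b1, which encodes the dynein regulator Lis1, had the highest level per length, 70.0 CPM per kb, followed by Cep170b with 38.1, Cep19 with 31.2, Hap1 with 30.3, Ndel1 with 29.4, Ahi1 with 27.5, Ssx2ip with 24.3 and Mib1 with 21.8. These 8 genes were above Pcm1 in WT brain (19.7 CPM per kb). They belong to different parts of the structure: 2 regulate dynein, 4 encode satellite proteins or partners of Pcm1, and 2 encode proteins of appendages or of the ciliary base. The genes for building new centrioles stood lower, with Cep120, needed for centriole elongation, at 9.59 CPM per kb and Cep152, which recruits the duplication kinase Plk4, at 0.522. At the bottom were Disc1 (0.274), Cep72 (0.213) and Cep55 (0.0916 CPM per kb), the last a gene for the final cut of cell division that gave 3 to 15 reads per library. Even with the counts of each animal summed, the 95% interval of its log2 fold change between genotypes ran from -0.88 to 0.43.

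**Figure D1:**
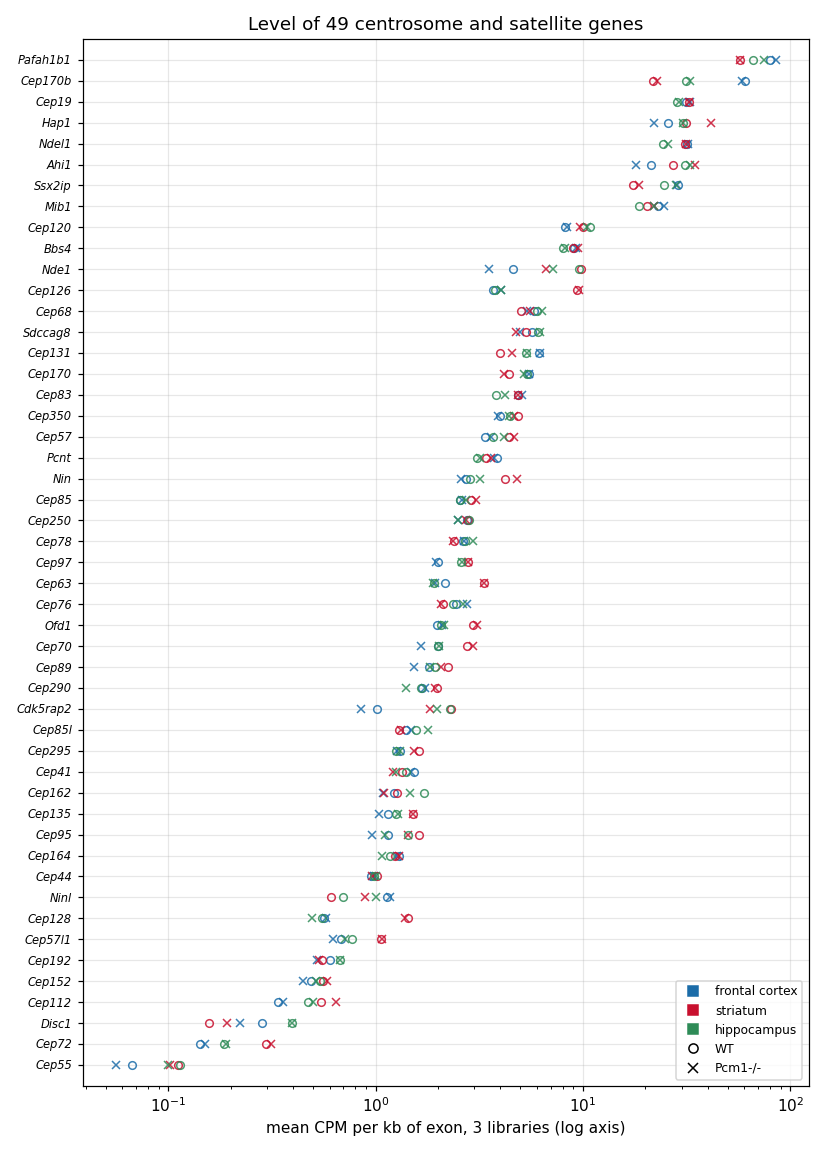
Mean CPM per kb of exon of 49 of the 50 genes on a log axis, 3 libraries per mean, with circles for WT, crosses for Pcm1-/- and colours for the regions. Pafah1b1 stands at 70.0 over all libraries and Cep55 at 0.0916, and the markers of one gene lie close together except where a region stands apart, as for Cep170b, Cep126, Cep128 and Nde1.

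The pairs of related genes were expressed at unequal levels per length. Ndel1 stood at 31.9 CPM per kb in WT frontal cortex and Nde1 at 4.60, a 6.93-fold distance that was 3.16-fold in WT striatum and 2.54-fold in WT hippocampus. Cep170b exceeded Cep170 by 11.1-fold in WT frontal cortex, 4.97-fold in WT striatum and 5.85-fold in WT hippocampus. Nin, a subdistal appendage protein that anchors microtubules, exceeded its relative Ninl by 2.39-fold, 6.94-fold and 4.11-fold in the same order. Cep57 exceeded Cep57l1 by 4.17-fold to 4.91-fold, and Cep85 exceeded Cep85l by 1.63-fold to 2.22-fold, in the 3 WT regions. The lower member of each pair was the same in all 6 groups.

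The first question of the design is whether the other genes of the centrosome and satellites differ when Pcm1 is lost. By edgeR, none of the 50 passed an adjusted p of 0.05 in any region. In the frontal cortex it called 0 of 50 genes, where 1.74% of all 17545 genes were called, and DESeq2 called 0, where it called 3.92% of all genes. In the striatum edgeR called 0 (0.0285% of all genes) and DESeq2 called 3 (2.78% of all genes). In the hippocampus both tools called 0 (0.0171% of all genes for edgeR and 1.21% for DESeq2). At an unadjusted p under 0.05 the frontal cortex had 6 genes, all lower in Pcm1-/- (15.3% of all genes passed), the striatum 5, with 3 higher and 2 lower (13.5%), and the hippocampus 2, with 1 in each direction (9.89%). Those shares of the 50 genes, 12%, 10% and 4%, were below the share of all genes in each region. The 1.74% of the frontal cortex, 306 genes, moved with the fit. It was 11 genes without Pcm1-/- replicate 1, 27 without Pcm1-/- replicate 2 and 825 without WT replicate 3. Leaving out a library also made 1 group smaller. With all libraries kept, 29 genes passed with lane as a covariate and 665 with the replicate number as a block.

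The values also bound how large a difference could have gone unseen. The 95% interval of the fold change lay within 1.5-fold in either direction for 47 of the 50 genes in frontal cortex, 43 in striatum and 44 in hippocampus. The genes whose interval reached past it were Cep55, Disc1 and Nde1 in the frontal cortex, these 3 with Cep112, Cep162, Hap1 and Ninl in the striatum, and Cdk5rap2, Cep162, Cep55, Cep95, Nde1 and Ninl in the hippocampus. The median log2 fold change (Pcm1-/- minus WT) of the 50 genes was -0.043, 0.01 and 0.013 in the 3 regions in that order, beside -0.007, -0.002 and 0 for all genes. The 3 WT and 3 Pcm1-/- values did not overlap for 12 genes in the frontal cortex, all lower in Pcm1-/- (24%, with 21.3% of all genes not overlapping). Marker sums moved there too, without overlap: the Pcm1-/- frontal cortex was lower for oligodendrocytes (1500 to 1590 against 1650 to 2180 CPM), microglia (256 to 290 against 298 to 400), endothelial cells (121 to 128 against 133 to 188) and dividing cells (1.33 to 1.69 against 1.83 to 2.52). It was higher for cortical excitatory neurons (2660 to 2820 against 2300 to 2350 CPM) and striatal projection neurons (240 to 267 against 186 to 208). In hippocampus the Pcm1-/- libraries were higher for cortical excitatory neurons (1920 to 2350 against 1400 to 1850 CPM) and lower for endothelial cells (93.7 to 104 against 113 to 160 CPM), again without overlap. The part of cell makeup in the members' values was not tested. In the striatum 8 genes did not overlap, 6 higher and 2 lower (16%, with 19.0% of all genes), and in the hippocampus 7, 6 higher and 1 lower (14%, with 17.1% of all genes).

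**Figure D2:**
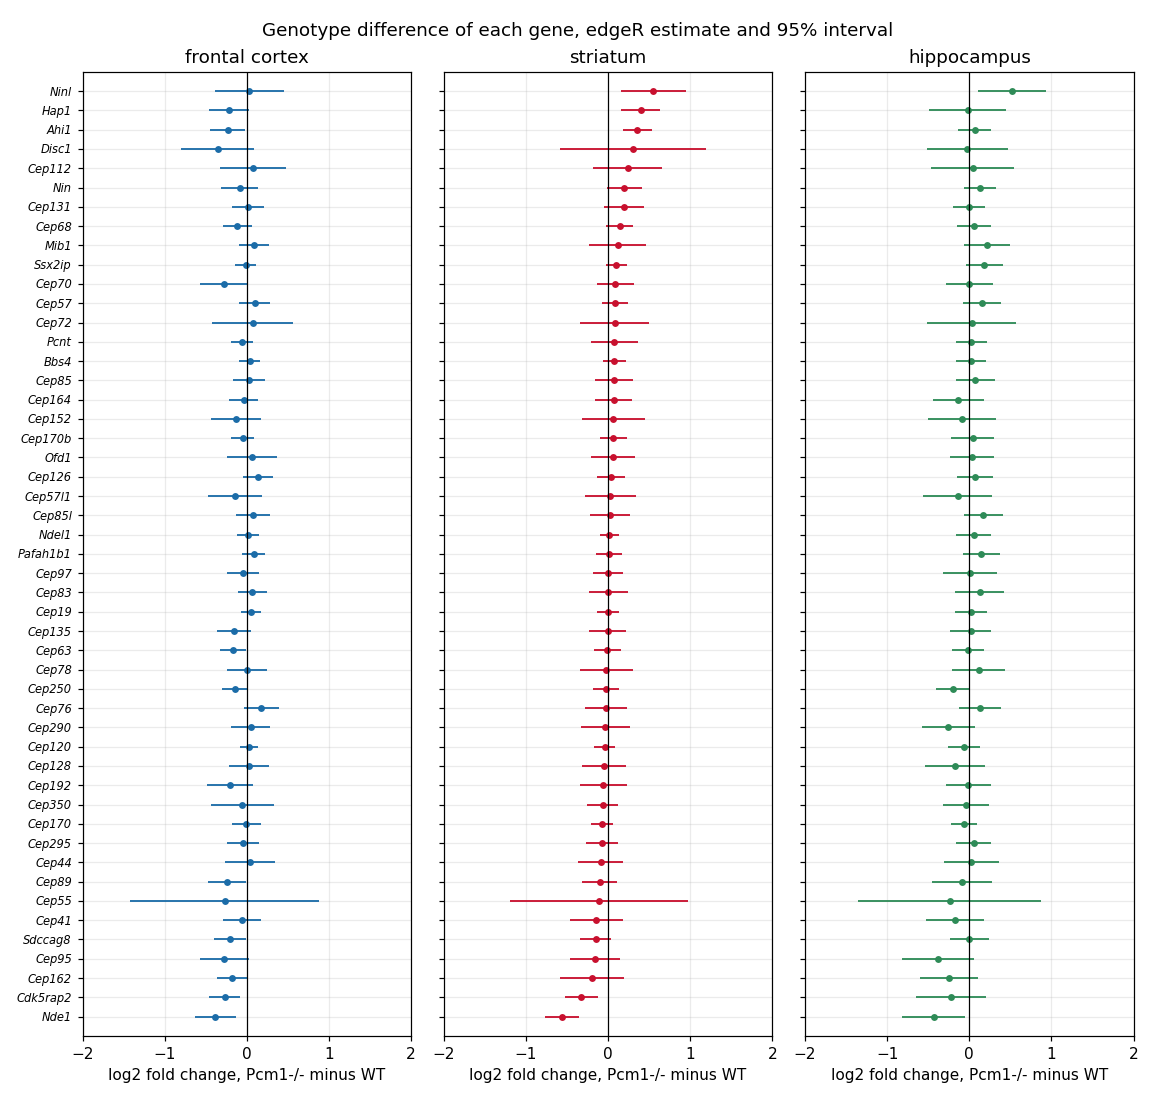
Log2 fold change between Pcm1-/- and WT of 49 of the 50 genes in each region (x axis), with the 95% interval of the edgeR estimate as a bar and genes ordered by the striatal value. Most points lie near 0; Nde1 is lowest in the striatum at -0.56 and Ninl highest there at 0.55, and none passed an adjusted p of 0.05 by edgeR.

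Nde1, a dynein regulator, had the smallest p of the 50 genes in frontal cortex and striatum and the next smallest in hippocampus. Nde1 (chromosome 16, 14163275 to 14192928, plus strand, GRCm38) encodes a protein that binds Lis1 and dynein and is needed for the divisions of cortical progenitors. In the frontal cortex it measured 17.2, 12.8 and 14.2 CPM in the WT libraries and 11.4, 11.02 and 11.6 CPM in the Pcm1-/- ones. In the striatum it measured 30.0, 33.6 and 30.9 CPM in WT and 19.5, 23.5 and 20.8 CPM in Pcm1-/-. In neither region did the groups overlap, and the Pcm1-/- libraries were the lower ones. In the hippocampus WT values of 37.0, 24.2 and 31.2 CPM overlapped with Pcm1-/- values of 24.3, 20.3 and 24.7 CPM, though within each same-numbered pair of libraries the Pcm1-/- value was the lower one. The log2 fold changes were -0.39 ± 0.11 (SE, adjusted p = 0.14), -0.56 ± 0.09 (adjusted p = 0.10) and -0.43 ± 0.16 (adjusted p = 0.46) by edgeR, and DESeq2 gave an adjusted p of 0.00012 in the striatum. In hippocampus the log2 fold change was -0.28 without WT replicate 1. The oligodendrocyte marker sum was also lower in every Pcm1-/- library of frontal cortex (1500 to 1590 CPM against 1650 to 2180 in WT) and striatum (4820, 7700 and 5560 CPM against 7850 to 7960 in WT), and within each same-numbered hippocampal pair (7950 and 4450, 4240 and 3160, 6730 and 5130 CPM). The Pcm1-/- striatal library with 7700 CPM had the highest Nde1 of its group, 23.5 CPM, where the lowest WT value was 30.0 CPM. The part of oligodendrocyte RNA in the Nde1 values was not tested. Part of Nde1 lies opposite Marf1 on the other strand, and the strand setting of the counting is not given in the sources used here. The related Ndel1 measured 95.8 to 109 CPM in WT and 104 to 107 CPM in Pcm1-/- frontal cortex. Pafah1b1, their shared partner, measured 525 to 572 CPM in WT and 530.0 to 570.3 CPM in Pcm1-/- striatum. In hippocampus its values of 571 to 678 CPM in WT lay below 702 to 738 CPM in Pcm1-/- without overlap (log2 fold change 0.15, 95% interval -0.07 to 0.37, adjusted p = 0.64).

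Cdk5rap2, of the pericentriolar material, had the next smallest p after Nde1 in the frontal cortex. Cdk5rap2 (chromosome 4, 70216856 to 70410443, minus strand) encodes a protein that holds and activates gamma-tubulin complexes, and its loss is a known cause of microcephaly. Its WT values of 12.9, 12.5 and 14.4 CPM in the frontal cortex stood above the Pcm1-/- values of 11.2, 11.02 and 10.9 CPM. In the striatum 28.2, 28.1 and 33.7 CPM in WT stood above 23.6, 24.8 and 23.2 CPM in Pcm1-/-, again without overlap. In the hippocampus the ranges, 23.3 to 36.2 and 20.8 to 28.3 CPM, overlapped, and the Pcm1-/- value was lower in each same-numbered pair. The log2 fold changes were -0.27 ± 0.08 (adjusted p = 0.17) in the frontal cortex and -0.33 ± 0.09 (adjusted p = 0.21) in the striatum. Within the WT hippocampus, the library with the highest oligodendrocyte marker sum (7950 CPM) also had the highest Cdk5rap2 (36.2 CPM) and Nde1 (37.0 CPM), and the one with the lowest sum (4240 CPM) the lowest of both, 23.3 and 24.2 CPM. In WT frontal cortex the library with the lowest sum (1650 CPM) had the highest Cdk5rap2 (14.4 CPM), and the one with the highest sum (2180 CPM) had 12.9 CPM of it but the highest Nde1 (17.2 CPM). The part of these markers in the genotype values was not tested.

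Ninl, which encodes a ninein-like protein of microtubule anchoring, had higher values in 2 regions of Pcm1-/- mice. In the striatum it measured 4.04, 2.77 and 4.01 CPM in WT and 5.47, 5.16 and 5.21 CPM in Pcm1-/-. In the hippocampus it measured 3.31, 4.98 and 4.17 CPM in WT and 5.69, 6.17 and 6.19 CPM in Pcm1-/-. The groups did not overlap in either region, while in the frontal cortex 5.22 to 7.71 CPM in WT and 5.46 to 7.87 CPM in Pcm1-/- covered the same range. The log2 fold changes of 0.55 ± 0.17 in striatum (adjusted p = 0.25) and 0.52 ± 0.18 in hippocampus (adjusted p = 0.44) did not pass the test. Striatal projection neuron markers were higher in every Pcm1-/- striatal library (7240 to 7840 against 6040 to 7060 CPM) and cortical excitatory ones in every Pcm1-/- hippocampal library (1920 to 2350 against 1400 to 1850 CPM), and their part in the Ninl values was not tested. Pcnt, the main scaffold of the pericentriolar material, measured 45.8 to 47.6 CPM in WT frontal cortex and 43.8 to 48.1 CPM in Pcm1-/-. The remaining 4 genes of this role, Cep192, Cep57, Cep57l1 and Cep68, had no unadjusted p under 0.05 in any region.

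Among the satellite genes, Ahi1 and its partner Hap1 were the leading ones. Ahi1 (chromosome 10, 20952547 to 21080429, plus strand) encodes jouberin, a protein of the ciliary transition zone, and Hap1 encodes a huntingtin-associated protein that binds both jouberin and Pcm1. Ahi1 measured 141, 136 and 170 CPM in WT frontal cortex and 115, 131 and 136 CPM in Pcm1-/-, so all mutant values were the lower ones, by a narrow margin. In the striatum the order was the opposite, with 182, 211 and 181 CPM in WT and 254, 240 and 237 CPM in Pcm1-/-. In the hippocampus the ranges of 202 to 234 and 220 to 246 CPM overlapped. The log2 fold changes were -0.24 ± 0.10 (adjusted p = 0.29), 0.35 ± 0.08 (adjusted p = 0.15) and 0.06 ± 0.09 (adjusted p = 0.82), and the first of them was -0.13 without WT frontal cortex replicate 3. Hap1 measured 107, 136 and 113 CPM in WT striatum and 171, 143 and 156 CPM in Pcm1-/- striatum, a log2 fold change of 0.40 ± 0.10 (adjusted p = 0.20). In frontal cortex its values of 86.2 to 115 CPM in WT and 78.1 to 88.2 CPM in Pcm1-/- overlapped (log2 fold change -0.22 ± 0.11, adjusted p = 0.37), and in hippocampus its means were 114.8 and 114.7 CPM. DESeq2 called both genes in the striatum, with an adjusted p of 0.0045 for Ahi1 and 0.023 for Hap1. The striatal projection neuron marker sum was also higher in every Pcm1-/- striatal library (7240 to 7840 CPM against 6040 to 7060 in WT). The astrocyte marker sum was lower (1180 to 1270 against 1330 to 1880 CPM). Among the astrocyte markers, Gfap had striatal means of 463 CPM in WT and 214 in Pcm1-/-, and Gja1 alone went the other way (231 and 250). The part of either marker set in the Ahi1 and Hap1 values was not tested.

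Whether a difference by genotype itself differed between regions was tested as an interaction over all 18 libraries, without a term for the animal. With the animal as a block, edgeR called 0 of the 50 genes and 0 of all genes. Without the block, edgeR called 0 of the 50 genes (0.0114% of all genes), and 1 gene, Ahi1, had an unadjusted p under 0.05 (5.54% of all genes). DESeq2 called 1 gene, again Ahi1 (0.536% of all genes, adjusted p = 0.030). By edgeR its p was 0.0015 and its adjusted p 0.41. Hap1 had the next smallest p, 0.064. The striatal side of this contrast carries the lanes described above. With lane as a covariate over all 18 libraries, edgeR again called 0 of the 50 genes, and Ahi1 had a p of 0.00017 and an adjusted p of 0.24.

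No other satellite gene but Sdccag8 had an unadjusted p under 0.05 in any region. Bbs4, a subunit of the BBSome cargo complex, measured 51.2 to 55.9 CPM in WT and 55.7 to 58.7 CPM in Pcm1-/- striatum, with a 95% interval of the log2 fold change from -0.06 to 0.22. That of Ofd1, a protein that limits centriole length, ran from -0.21 to 0.33 in striatum and from -0.24 to 0.37 in frontal cortex. Mib1, a ubiquitin ligase held at satellites, measured 196 to 257 CPM in WT striatum and 190 to 280 CPM in Pcm1-/- striatum. Sdccag8 measured 21.5 to 26.1 CPM in WT and 19.98 to 21.3 CPM in Pcm1-/- frontal cortex (log2 fold change -0.20 ± 0.09, adjusted p = 0.31). Disc1, a scaffold that binds Nde1 and Ndel1, lies 83.72 Mb from Pcm1 on the same chromosome and gave only 12 to 48 reads, with intervals too wide to limit a 1.5-fold change in 2 regions. Cep44, the other member on that chromosome, lies 15.2 Mb from Pcm1 and measured 4.80 to 6.28 CPM in WT and 5.497 to 6.30 CPM in Pcm1-/- frontal cortex.

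For the genes of centriole duplication and length, and for those of appendages, linker and cilium assembly, the smallest p-values were again unadjusted ones. Cep63, which forms a ring with Cep152 around the parent centriole, measured 20.2, 21.5 and 20.5 CPM in WT and 19.2, 18.8 and 17.6 CPM in Pcm1-/- frontal cortex (log2 fold change -0.17 ± 0.07, adjusted p = 0.30). Cep89, a distal appendage gene, measured 8.66 to 10.1 CPM and 7.20 to 8.25 CPM there (adjusted p = 0.31). Cep250, which encodes the linker protein that ties both centrioles together, had the next smallest p after Ninl and Nde1 in the hippocampus, with 31.9, 28.1 and 27.8 CPM in WT and 24.8, 26.1 and 26.7 CPM in Pcm1-/- (log2 fold change -0.20 ± 0.09, adjusted p = 0.52, and -0.13 without WT hippocampus replicate 1). Its WT and Pcm1-/- values did not overlap in the frontal cortex or the hippocampus, and they did in the striatum. Apart from Cep63 and Cep89 in frontal cortex, every gene of these roles, Cep250 included, had an unadjusted p above 0.05 in every region.

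**Figure D3:**
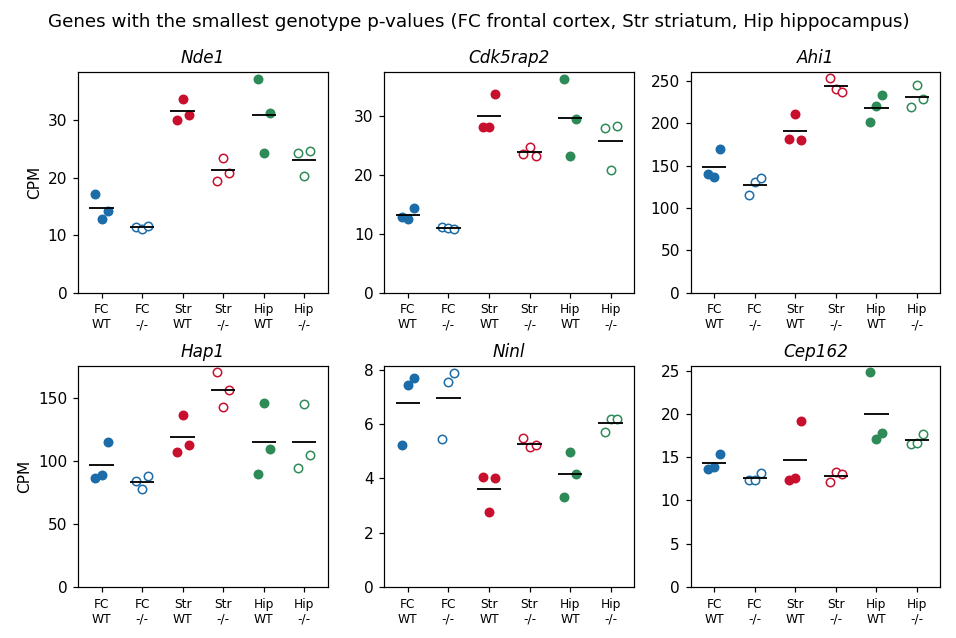
CPM (y axis, from 0) of 6 genes in each library by region and genotype, with filled points for WT, open points for Pcm1-/- and a line at the mean of 3. Nde1 and Cdk5rap2 lie lower in Pcm1-/- frontal cortex and striatum, Ahi1 and Hap1 higher in Pcm1-/- striatum, and Ninl higher in Pcm1-/- striatum and hippocampus; Cep162 varies between WT libraries.

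Summing the counts of the regions within each animal tests a difference common to the whole set of tissue over 6 animals. EdgeR called 0 of the 50 genes (1.39% of all genes were called), and 5 had an unadjusted p under 0.05, all lower in Pcm1-/- (17.2% of all genes passed). The 1.39%, 243 genes, was 4 to 398 genes when 1 animal was left out and 28 with the replicate number as a block. DESeq2 called 2 genes, Nde1 and Cdk5rap2 (6.86% of all genes). Nde1 had a log2 fold change of -0.49 ± 0.09, with an adjusted p of 0.053 by edgeR and 9.9e-05 by DESeq2. Cdk5rap2 followed with -0.28 ± 0.07 (adjusted p = 0.091 and 0.010). Cep162, which acts at the base of the axoneme, came next with -0.22 ± 0.07 (edgeR, adjusted p = 0.16). Its WT values in striatum and hippocampus were led by the libraries with most choroid plexus RNA. WT striatum replicate 3 had 19.2 CPM of Cep162 beside 12.3 and 12.6 CPM in the other WT striatal libraries. WT hippocampus replicate 1, with a choroid plexus sum of 6250 CPM, had 24.9 CPM beside 17.1 and 17.8 CPM. In frontal cortex the WT values of 13.65, 13.81 and 15.41 CPM lay above 12.38, 12.41 and 13.14 CPM in Pcm1-/-. The choroid plexus sums of those WT libraries were 5.71, 10.7 and 5.9 CPM. In Pcm1-/- hippocampus, sums of 2350, 220 and 4130 CPM stood beside 16.5, 16.6 and 17.7 CPM of Cep162. Whether choroid plexus RNA has a part in the Cep162 values was not tested.

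The design also compares the regions, and there many of the genes differed. In WT mice 26 of the 50 differed between striatum and frontal cortex, 19 higher in striatum (20.6% of all genes were) and 7 lower (20.9%). Between hippocampus and frontal cortex 9 differed, 5 higher in hippocampus (14.5% of all genes) and 4 lower (15.3%). With the animal as a block, which pairs the regions of one mouse, 14 genes passed in that comparison, 5 higher and 9 lower (37.0% of all genes). Between striatum and hippocampus 17 differed, 12 higher in striatum (14.4% of all genes) and 5 lower (14.8%). Without WT striatum replicate 3, 7 were higher and 6 lower, with 5153 of all genes called beside 5126. Without WT striatum replicate 2, 11 were higher and 3 lower, with 4040 of all genes called. In the 3 comparisons of regions, in the order given, the median log2 fold change of the 50 genes was 0.188, 0.04 and 0.112. That of all genes was 0.02, -0.009 and 0.01. By role, 6 of the 12 genes of centriole duplication were higher in striatum than in frontal cortex and 0 lower, and in the appendage, linker and cilium group of 14 genes 4 were higher and 2 lower. The satellite group of 12 had 4 higher and 3 lower, and the pericentriolar group of 7 had 3 higher and 1 lower.

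Cep170b had the smallest p in both comparisons with the frontal cortex, and it was the only member called in all 3 WT comparisons of regions. Cep170b (chromosome 12, 112720455 to 112746592, plus strand) encodes a relative of the subdistal appendage and microtubule-binding protein Cep170. It measured 496, 485 and 471 CPM in WT frontal cortex, 241, 288 and 231 CPM in WT hippocampus, and 165, 182 and 180 CPM in WT striatum, and no 2 regions overlapped. The log2 fold change was -1.46 ± 0.09 between striatum and frontal cortex (adjusted p = 1.1e-06), -0.94 ± 0.09 between hippocampus and frontal cortex (adjusted p = 5.3e-05) and -0.52 ± 0.09 between striatum and hippocampus (adjusted p = 0.0015). The sum of 5 pan-neuronal markers had the same order in WT mice. It was 8900 to 9720 CPM in frontal cortex, 5900 to 7260 in hippocampus and 4390 to 4650 in striatum. Among these markers, Rbfox3 and Tubb3 were no lower in striatum (means of 349 and 217 CPM) than in hippocampus (337 and 213). The part of neuronal RNA in the difference was not tested. Cep170, the related gene, was lower in WT striatum than in both other regions by much less, 77.5 to 83.5 CPM against 93.5 to 109 in frontal cortex and 95.4 to 99.95 in hippocampus.

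Cep126 and Cep128 were high in striatum alone. Cep126 (chromosome 9, 8076461 to 8134294, minus strand) encodes a protein that helps to bring satellites and dynactin to the centrosome. It measured 43.3, 39.3 and 46.7 CPM in WT striatum, 16.3, 18.4 and 16.1 CPM in WT frontal cortex and 18.3, 16.1 and 17.8 CPM in WT hippocampus. Cep128 (chromosome 12, 90998492 to 91384409, minus strand) encodes a subdistal appendage protein. It measured 21.5, 16.7 and 22.7 CPM in WT striatum, 7.77, 7.69 and 8.48 CPM in frontal cortex and 8.90, 6.82 and 7.59 CPM in hippocampus. For both genes the striatal values stood more than 1.5-fold above each value of the other regions, and the latter overlapped. Against frontal cortex the log2 fold changes were 1.35 ± 0.10 for Cep126 and 1.35 ± 0.14 for Cep128 (adjusted p of 2.6e-06 and 4.1e-05), and against hippocampus 1.31 ± 0.10 and 1.39 ± 0.15 (3.4e-06 and 4.0e-05). The ependymal marker sum was 24.2 to 52.9 CPM in WT striatum and 22.0 to 55.4 CPM in WT hippocampus, where both genes were at the level of the frontal cortex, whose sum was 3.39 to 5.5 CPM. The striatal projection neuron marker sum was 6040 to 7060 CPM in WT striatum, 186 to 208 in WT frontal cortex and 116 to 161 in WT hippocampus. The part of ependymal or projection neuron RNA in the striatal values was not tested.

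Cdk5rap2 and Nde1 followed another order, low in frontal cortex and high in both other regions. Cdk5rap2 measured 12.5 to 14.4 CPM in WT frontal cortex, 28.1 to 33.7 in striatum and 23.3 to 36.2 in hippocampus, and Nde1 12.8 to 17.2, 30.0 to 33.6 and 24.2 to 37.0 CPM. Against frontal cortex the log2 fold changes of Cdk5rap2 were 1.18 ± 0.15 in striatum and 1.16 ± 0.15 in hippocampus (adjusted p of 0.00015 and 0.00035). Those of Nde1 were 1.10 ± 0.16 and 1.06 ± 0.16 (adjusted p of 0.00028 and 0.00064). Between striatum and hippocampus they were 0.02 ± 0.15 for Cdk5rap2 (95% interval -0.31 to 0.36) and 0.04 for Nde1, with overlapping values. The oligodendrocyte marker sums had the same order, 1650 to 2180 CPM in WT frontal cortex against 7850 to 7960 in striatum and 4240 to 7950 in hippocampus. Their part in these differences was not tested.

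The bases before the starts of the member with the largest called change in each WT comparison of regions (Cep170b, Cdk5rap2 and Cep128) are shown to print the DNA in front of the genes that differed most between regions. They are from RefSeq on GRCm38.p6, written 5′ to 3′ on the strand of the gene, and bases that fall in an annotated exon were left out.
Cep170b: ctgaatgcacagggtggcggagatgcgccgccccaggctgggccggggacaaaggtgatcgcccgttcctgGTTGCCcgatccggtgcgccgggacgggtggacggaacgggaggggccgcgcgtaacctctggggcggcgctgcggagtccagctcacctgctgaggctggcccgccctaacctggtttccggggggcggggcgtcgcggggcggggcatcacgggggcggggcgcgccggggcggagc
Cdk5rap2: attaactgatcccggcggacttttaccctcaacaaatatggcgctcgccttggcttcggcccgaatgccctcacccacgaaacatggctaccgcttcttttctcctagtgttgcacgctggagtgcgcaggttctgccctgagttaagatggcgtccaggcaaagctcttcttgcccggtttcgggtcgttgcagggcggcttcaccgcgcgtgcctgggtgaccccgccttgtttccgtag
Cep128: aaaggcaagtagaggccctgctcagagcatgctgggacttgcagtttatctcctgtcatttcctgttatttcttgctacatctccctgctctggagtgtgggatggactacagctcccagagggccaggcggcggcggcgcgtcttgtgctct
The sequence of Cep170b is 250 bases at chr12:112721924-112722173 (plus strand), before a start that lies 1719 bases inside the annotated gene, and it falls in an intron of a short transcript that begins upstream. That of Cdk5rap2 is 242 bases at chr4:70410444-70410685 and that of Cep128 153 bases at chr12:91384410-91384562, both on the minus strand. Capitals mark an RFX half-site (GTTGCC on either strand), the only one of the searched motifs found in them; RFX factors are known regulators of cilium genes. Each motif was searched on both strands and counted apart from the others. Over the 250 bases before the start, this motif was in 11.6% of the 43 members with a RefSeq promoter and in 10.7% of all 12031 promoters. A CCAAT box (CCAAT) was in 37.2% and 35.8%, and the cell cycle homology letters TTTGAA in 9.3% and 10.6%. The members thus held these letters about as often as other genes.

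Of the satellite genes, Ssx2ip and Cep131 were low in striatum. Ssx2ip, needed for spindle and cilium assembly, measured 69.5 to 74.8 CPM in WT striatum, 115 to 126 in frontal cortex and 91.9 to 117 in hippocampus (log2 fold change -0.72 ± 0.09 and -0.50 ± 0.09, adjusted p of 0.00014 and 0.0021). Cep131, a satellite protein of cilium assembly, measured 14.4 to 17.2 CPM in striatum against 21.01 to 25.5 in frontal cortex (-0.61 ± 0.11, adjusted p = 0.0011). Disc1 measured 0.441 to 0.733 CPM in WT striatum and 1.42 to 1.58 CPM in hippocampus (-1.32 ± 0.24, adjusted p = 0.0019), from few reads. Ahi1 was higher in WT hippocampus (202 to 234 CPM) than in frontal cortex (136 to 170 CPM; 0.55 ± 0.11, adjusted p = 0.0033).

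Of the centriole genes, Cep63 measured 31.3 to 33.7 CPM in WT striatum, 20.2 to 21.5 in frontal cortex and 17.6 to 18.8 in hippocampus. Its log2 fold change was 0.64 ± 0.08 against frontal cortex and 0.82 ± 0.08 against hippocampus (adjusted p of 9.0e-05 and 1.9e-05), and Anapc13 overlaps it on the other strand. Cep120 was higher in hippocampus (67.2 to 79.1 CPM) than in frontal cortex (54.6 to 57.2 CPM; 0.39 ± 0.07, adjusted p = 0.0026). Ndel1 was lower in WT hippocampus (74.4 to 84.5 CPM) than in frontal cortex (95.8 to 109 CPM) and striatum (99.2 to 104 CPM), with log2 distances of 0.39 and 0.35 (adjusted p of 0.0027 and 0.0040), so it did not share the order of Nde1. Pcnt and Ninl were lower in hippocampus than in frontal cortex, by -0.32 ± 0.09 and -0.71 ± 0.22 (adjusted p of 0.019 and 0.035), and each lost the call without WT frontal cortex replicate 2 or 3 or hippocampus replicate 1, Ninl also without hippocampus replicate 3.

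**Figure D4:**
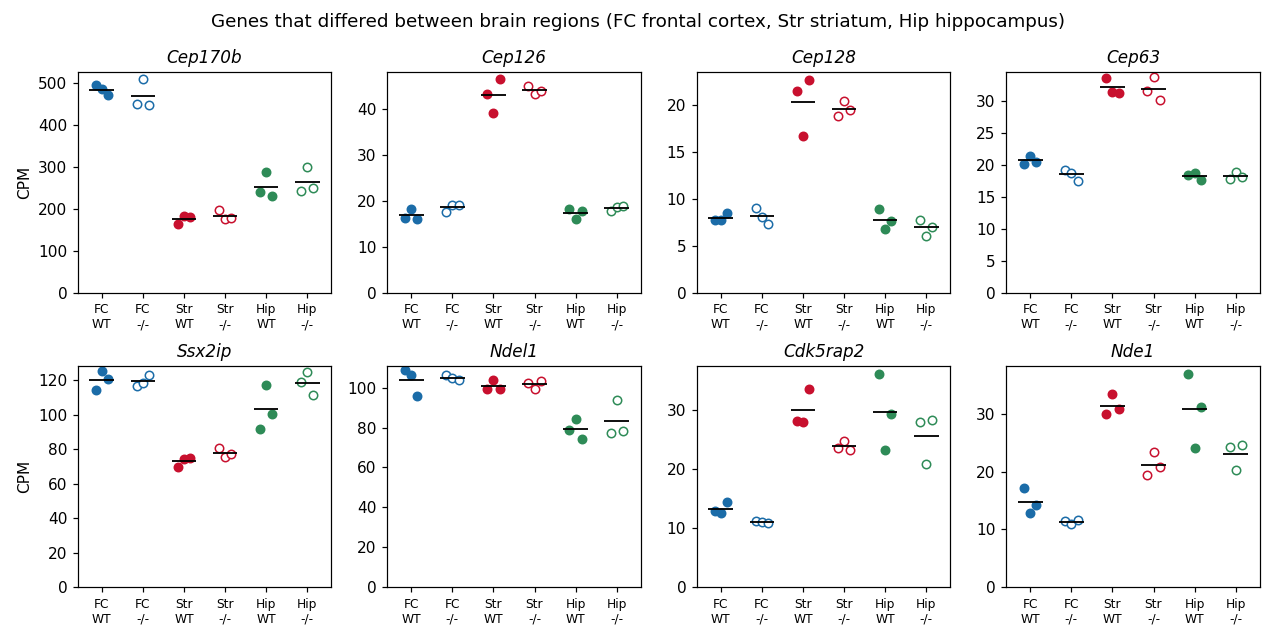
CPM (y axis, from 0) of 8 genes in each library by region and genotype, with filled points for WT, open points for Pcm1-/- and a line at the mean of 3. Cep126, Cep128 and Cep63 are highest in striatum, Cep170b in frontal cortex (471 to 496 CPM in WT), Cdk5rap2 and Nde1 are lowest in frontal cortex, and Ndel1 is lowest in hippocampus.

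The same differences were measured again in the Pcm1-/- mice, which are other animals, and there the striatal libraries were on other lanes than in WT. In Pcm1-/- mice striatum differed from frontal cortex in 29 genes, 22 higher (27.2% of all genes) and 7 lower (27.1%). Hippocampus differed from frontal cortex in 21, 14 higher (20.2%) and 7 lower (21.2%), and striatum from hippocampus in 30, 18 higher (21.9%) and 12 lower (23.1%). Of the 26 striatal calls in WT, 25 were called in the same direction in Pcm1-/-, which is 96.2% of the WT calls and 86.2% of the Pcm1-/- ones, and Disc1 alone was not. For hippocampus against frontal cortex 7 of the 9 WT calls were shared, 77.8% of the WT and 33.3% of the Pcm1-/- calls, all but Ninl and Pcnt. For striatum against hippocampus 16 of 17 were shared, 94.1% and 53.3%, all but Cep19. Over all genes, 91.1%, 85.8% and 93.3% of the WT calls and 69.7%, 61.7% and 60.5% of the Pcm1-/- calls were shared in the 3 comparisons in that order. None of the 50 genes was called in opposite directions. Across the 50 genes the log2 fold changes of WT and Pcm1-/- mice had a Pearson r of 0.94, 0.93 and 0.954 in the 3 comparisons; genes are not independent replicates, so these are descriptions.

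**Figure D5:**
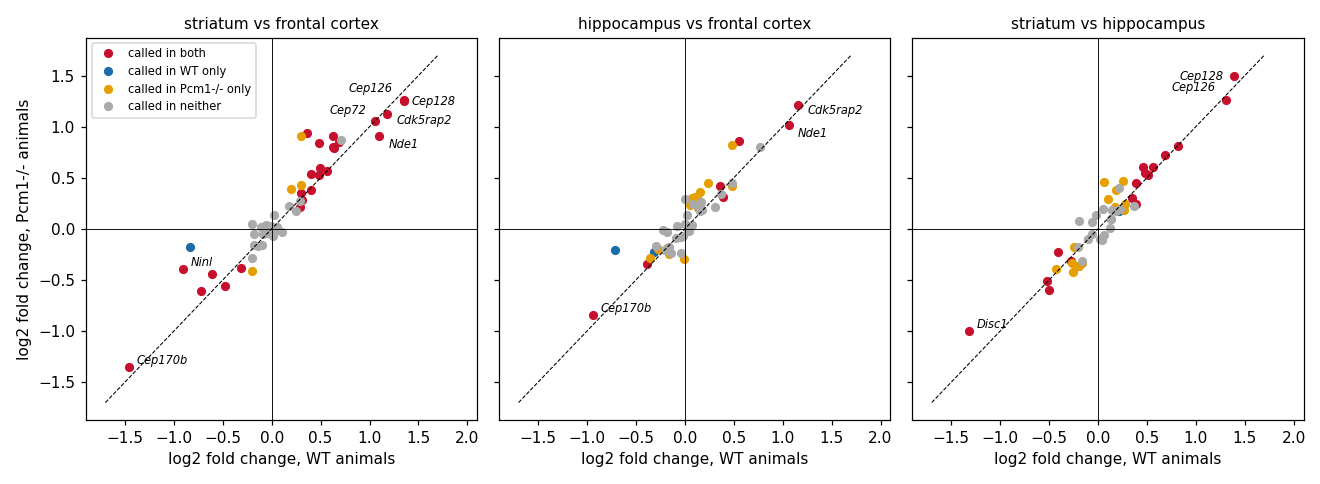
Log2 fold change between regions of each of the 50 genes in WT mice (x axis) and in Pcm1-/- mice (y axis), with the dashed line marking equal values and colours showing where the gene passed an adjusted p of 0.05. Cep170b lies at -1.46 and -1.35 and Cep126 at 1.35 and 1.25 for striatum against frontal cortex, and no called gene lies on opposite sides of 0.

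In both genotypes 10 of the 50 genes were called higher in striatum than in each of the other regions (8.66% of all genes were), among them Cep126, Cep128, Cep295, Cep63, Nin and Ofd1. Another 4, Cep131, Cep170, Cep170b and Ssx2ip, were called lower there than in each of the others, again in both genotypes (9.43% of all genes). Nin and Cep128 belong to the subdistal appendages, and Cep63 and Cep295 are needed to make or convert centrioles. Of the 50 genes, 8 were called in no comparison of regions in either genotype, where 27.6% of all genes were called in none: Cep250, Cep350, Cep41, Cep44, Cep55, Cep78, Cep85 and Mib1. Ahi1 and Hap1 lay farther apart between genotypes: their log2 fold change between striatum and frontal cortex was 0.36 and 0.30 in WT and 0.94 and 0.91 in Pcm1-/-. Those of Disc1, with few reads, were -0.84 and -0.18, and those of Ninl -0.91 and -0.39. The test of such gaps is the interaction given above.

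The summed CPM of the 50 genes was 2781 to 3043 in WT and 2859 to 2932 in Pcm1-/- frontal cortex, 2448 to 2527 and 2482 to 2731 in striatum, and 2451 to 2661 and 2683 to 2772 in hippocampus. The ranges of the genotypes overlapped in frontal cortex and striatum, and in hippocampus every Pcm1-/- sum was above every WT one, beside the marker shifts given above for that region. The largest single part of that gap was Pafah1b1, whose mean was 638 CPM in WT and 715.3 CPM in Pcm1-/- hippocampus.

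Beyond the members, 85 other genes of the centrosome were listed by textbook role (centriole duplication, pericentriolar matrix and gamma-tubulin, linker and appendages, satellites), of which 84 passed the count minimum. Between genotypes edgeR called 0 of the 84 in each region, with 11, 5 and 3 at an unadjusted p under 0.05 in frontal cortex, striatum and hippocampus (15.3%, 13.5% and 9.89% of all genes), and DESeq2 called 2 (Lrrc45 and Crocc), 2 (Sass6 and Ccp110) and 0, where it called 3.92%, 2.78% and 1.21% of all genes. In WT mice 19 were higher and 9 lower in striatum than in frontal cortex, 6 higher and 10 lower in hippocampus than in frontal cortex, and 15 higher and 4 lower in striatum than in hippocampus. The shares of all genes were 20.6% and 20.9%, 14.5% and 15.3%, and 14.4% and 14.8% in the same order. Akap9, a scaffold that anchors gamma-tubulin at the centrosome and Golgi, measured 253 to 364 CPM in WT striatum and 66.9 to 106 CPM in frontal cortex (log2 fold change 1.95 ± 0.20, adjusted p = 3.0e-05). Tubgcp6, a subunit of the gamma-tubulin ring, measured 41.4 to 42.7 CPM in frontal cortex, 23.9 to 28.0 in striatum and 27.0 to 29.5 in hippocampus, and was called lower in both. Cenpj, which sets centriole length, measured 6.70 to 7.82 CPM in WT striatum and 2.74 to 2.80 CPM in frontal cortex (1.41 ± 0.18, adjusted p = 0.00012). Dzip1, of the ciliary base, went the other way, with 43.3 to 48.4 CPM in striatum and 76.4 to 82.3 CPM in frontal cortex (-0.79 ± 0.09, adjusted p = 7.3e-05).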

How the data were processed

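Poly(A) RNA of 18 libraries was sequenced (KAPA stranded mRNA kit). The authors trimmed reads with Trim Galore and cutadapt, aligned them with STAR to mouse GRCm38, and deposited HTSeq counts of uniquely mapped reads per Ensembl gene, unnormalised. The paper names the release of the genome and transcriptome that reads were mapped to. Versions of these tools and the strand setting are not given in the sources used here. Reads outside genes (8.98% to 11.56%) and ambiguous reads (1.58% to 1.79%) were left out. Positions came from GENCODE M21.

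Genes reaching 10 counts in any library were tested with edgeR 4.0.16 (R 4.3.3; TMM, quasi-likelihood F test, Benjamini-Hochberg adjustment over 17545 genes, called at an adjusted p under 0.05). Genotypes were compared within a region and over counts summed per animal, and regions within a genotype. DESeq2 1.42.0 was the alternative tool. CPM used TMM factors of all libraries. Steps were tested on simulated data.

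Groups came from the sample titles, animal and lane from library names. After removal of group means, libraries of one animal correlated between regions at a mean of 0.335 in WT and 0.267 in Pcm1-/- (different animals -0.168 and -0.13), so the animal was tried as a block. Same-numbered WT and Pcm1-/- libraries correlated at 0.0308, 0.373 and 0.319 in frontal cortex and at 0.124, 0.609 and 0.277 in hippocampus. In striatum the values were 0.276, -0.151 and -0.346. Differently numbered hippocampal libraries reached 0.311, so the replicate number is no clear pairing of the genotypes.

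Members, roles and lists were chosen with earlier results of these data known. By rule, full statistics went to the 8 members with the smallest p per WT comparison of regions and the 3 per genotype comparison. Other members with statistics, and the pathway genes that DESeq2 called, were named after their values were seen. The values of 1 member, which enter the counts, are not reported here.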

Additional observations from a re-analysis of the deposited data

How the results depend on the processing

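Most values kept their direction and their side of the threshold under the alternatives (other size factors, other filters, DESeq2, blocks, lane, 1 fit of all 18 libraries, and each library or animal left out). Of 133 alternative counts of called members 124 stayed within 1.5 times the reported count, and of 447 alternative values of named members none reversed. Without a filter on low counts, 1 member (Nde1) passed between genotypes in the striatum and 1 (Nde1) in the summed counts. DESeq2 called 3 in the striatum (Nde1, Ahi1, Hap1), 2 in the summed counts (Nde1, Cdk5rap2) and 1 in the interaction (Ahi1); adjusted p ranged over all alternatives from 0.00012 to 0.48 for striatal Nde1, from 0.0045 to 0.53 for Ahi1 and from 0.023 to 0.61 for Hap1. For WT hippocampus against frontal cortex, 14 members passed with the animal as replicate block and 15 in 1 fit of all 18 libraries, beside 9 reported, while the count over all genes was 6492 and 6618, beside 5230. The cause of these moves was not tested.

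Leaving out 1 library or animal gave 0 members between genotypes by edgeR in each region, in the interaction and in the summed counts. For regions it gave 21 to 25 (striatum, frontal cortex), 6 to 10 (hippocampus, frontal cortex) and 11 to 14 (striatum, hippocampus) in WT, and 27 to 29, 12 to 21 and 22 to 33 in Pcm1-/-. Without WT striatum replicate 1, 11 members passed between striatum and hippocampus, beside 17 with it (4016 and 5126 of all genes), and without Pcm1-/- frontal cortex replicate 1, 12 passed between hippocampus and frontal cortex, beside 21 with it (5737 and 7273 of all genes). Without WT striatum replicate 3, the library rich in choroid plexus markers, 23 and 13 members passed in the 2 WT comparisons with striatum. The replicate number or animal as a block changed no call between genotypes. Within the striatum alone no fit with lane could be made; lane as a covariate left 0 members called in frontal cortex, hippocampus and the interaction. With 3 animals per group and the spread between them, a 1.5-fold difference between genotypes was within the 95% interval of 3 to 7 of the 50 genes per region, Cep55 and Nde1 in each.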
